A study of Homo sapiens with 4 samples.

Results

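The genes described here were 10 genes of the interleukin-6 (IL-6) cytokine family and its STAT3 cascade, chosen by name from the 19314 genes listed with FPKM values. FPKM counts the fragments sequenced from a gene and divides them by its length and the size of the library. The genes were the cytokines IL6, IL11 and LIF, the receptor chains IL6R, IL6ST, LIFR and OSMR, the transcription factors STAT3 and CEBPB, and the feedback inhibitor SOCS3. All 10 had a value above 0 and were among the 16595 genes tested.

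RNA was sequenced from U87, a human glioma cell line. There were 2 libraries with PTPRN knockdown and 2 libraries with a scrambled control hairpin (SCR). PTPRN encodes a receptor-type member of the tyrosine phosphatase family in secretory granules, whose phosphatase domain the study describes as inactive. According to the study's methods, hairpins were carried by the pLKO.1 vector in both groups, and the library titles (PTP2) and the study's group names point to a single PTPRN hairpin, shPTPRN-2. The SCR libraries therefore shared the vector but not the targeting hairpin, and loss of PTPRN and other effects of that hairpin cannot be told apart. No label or method says that the libraries of a group came from separate cultures, so p-values measure only the spread between these samples, which may be technical.

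Depth, estimated from the spacing of low FPKM values, lay between 17800000 and 19400000 reads per library, and 11080 to 11252 genes reached an FPKM of 1. PTPRN was at 12.09 and 11.68 FPKM in the knockdown libraries and at 84.84 and 85.02 in the SCR libraries, a log2 fold change of −2.74 (SE 0.03, adjusted p = 0.000148, limma). The growth protocol in the labels names hCMEC/D3, an endothelial line, while the cell line label and the study name U87. Of 12 endothelial markers, 9 stayed under an FPKM of 1 in every library and 0 reached 10, and the vascular cadherin CDH5 did not exceed 0.03. PECAM1, an endothelial adhesion molecule, was at 1.21 and 1.26 FPKM with knockdown and at 2.39 and 2.5 in SCR and fell (adjusted p = 0.000777), and the receptor TEK reached 1.08. The glial markers were mixed. The astrocyte markers S100B and GFAP did not exceed 0.05 and 0.55, SOX2 did not exceed 0.27, and OLIG2 reached 1.15. Vimentin (VIM) lay between 1918.05 and 4766.13 and rose with knockdown (log2 fold change 1.25). Tenascin C (TNC) lay between 262.87 and 689.19 and fell (−1.37). CDKN2A and MTAP, also on this list, did not exceed 0.05 and 0.34, and CDKN2B had no value.

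Cytokines of the IL-6 family signal through gp130, the receptor chain encoded by IL6ST. A ligand first binds a chain of its own, such as IL6R for IL-6 or IL11RA for IL-11, or joins gp130 to a related signalling chain such as LIFR or OSMR. Kinases of the JAK family bound to these chains then phosphorylate STAT3, which moves to the nucleus and switches on genes that include SOCS3, an inhibitor of the same receptor complex. CEBPB, first known as a nuclear factor for IL-6 expression, binds the IL6 promoter and takes part in mesenchymal gene expression in glioma together with STAT3.

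IL6 and IL11 are shown with the sequence before their start sites because these cytokine genes moved in opposite directions. The RefSeq promoter table (GRCh38.p14) held 9 of the 10 genes. LIF was absent from it, so no motif was searched for LIF. Exact matches were searched on both strands in the 250 bases before each start site, with N for any base, for the STAT motif TTCNNNGAA, the NF-κB motif (GGG, then any 2 bases, then TTTCC), the C/EBP motifs TTGCNNCAA and TTNNGNAAT and the AP-1 motif TGANTCA. Capitals mark the matches. The IL6 stretch is chr7:22726950-22727141 on the plus strand and ends where the listed gene begins. The IL11 stretch is chr19:55370464-55370713 read on the minus strand.
IL6: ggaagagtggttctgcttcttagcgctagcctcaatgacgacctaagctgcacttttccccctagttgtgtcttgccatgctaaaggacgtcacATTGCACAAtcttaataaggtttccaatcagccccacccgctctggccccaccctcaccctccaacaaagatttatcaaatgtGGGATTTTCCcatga
IL11: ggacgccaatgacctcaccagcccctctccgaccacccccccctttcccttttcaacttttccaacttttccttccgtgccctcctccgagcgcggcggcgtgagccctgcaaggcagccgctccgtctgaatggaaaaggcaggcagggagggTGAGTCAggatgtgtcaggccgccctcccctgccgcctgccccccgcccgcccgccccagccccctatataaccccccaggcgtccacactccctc

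In the IL6 stretch the capitals were an NF-κB match, 73 to 64 bases before the RefSeq start site, and a C/EBP match, 156 to 148 bases before it. The IL11 stretch held an AP-1 match, 96 to 90 bases before the start site, and no match to the NF-κB, C/EBP or STAT letters. Among the other windows, LIFR held a STAT match (TTCCTTGAA) and OSMR a C/EBP match (ATTGCAAAA). For each gene this was the window nearest to the start of the gene as listed. The last 154 bases of the OSMR window lie inside the gene as listed, and its C/EBP match lies among them. The windows of IL6R, IL6ST, STAT3, SOCS3 and CEBPB held none of these letters, and neither did the other RefSeq window of SOCS3 or of CEBPB. The nearest window of SOCS3 lies inside the gene as listed. Its other window lies further upstream of the listed start, so the bases directly before that start were not searched. Of the 2 other windows of LIFR, both inside the listed gene, 1 held a STAT match (TTCATCGAA) and a C/EBP match (ATTTCTGAA). Of 35116 RefSeq windows of the same length, 1.73% held the NF-κB motif, 11.2% a C/EBP motif, 6.57% the STAT motif and 6.57% the AP-1 motif. A match describes the letters only, and binding was not measured.

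Each library's FPKM of the 10 genes did not overlap between groups, as was the case for 75.6% of all genes tested. At an adjusted p of at most 0.05, 9 of the 10 genes differed, against 57.9% of all genes tested. IL6, LIF, IL6R, IL6ST, LIFR, SOCS3 and CEBPB were higher with knockdown (7 of 10, against 30.8% of all genes), and IL11 and STAT3 were lower (2 of 10, against 27.1%). With the stricter limits used in the study, at which a gene must change by 2 times or more with an adjusted p no higher than 0.001, IL6, LIF and IL11 were called (3 of 10, against 6.69%). IL6 and LIF were called higher (2.63% of all genes) and IL11 lower (4.06%). This count was 0 with a pseudocount of 0.1, with the replicate number as a block and with any 1 library left out, settings under which limma called 0 of all genes at these limits. At an unadjusted p under 0.05 these settings held 9, 9 and 8 to 9 of the 10 genes. With an FPKM minimum of 1 in 2 libraries, 4 of the 10 genes and 1289 of 11480 genes met the stricter limits. The median log2 fold change of the 10 genes was 0.56, against 0.01 over all genes tested. With 2 libraries against 2, the lowest p that exact permutation of a gene can reach is 0.333, so each call depends on the common spread that limma estimates from all genes.

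**Figure D1:**
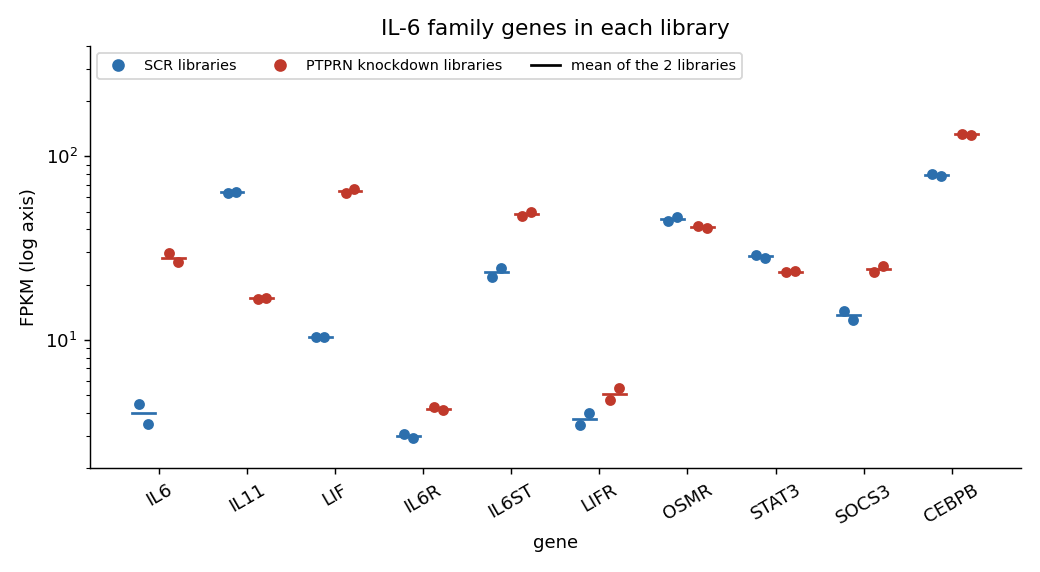
FPKM (log axis) of the 10 genes in each library, with SCR libraries in blue, PTPRN knockdown libraries in red and a line at the mean of each 2 libraries. LIF lay at 63.35 and 66.43 with knockdown against 10.35 and 10.34 in SCR, while IL11 lay at 16.67 and 16.98 against 63.02 and 64.23.

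The secreted cytokines showed the largest differences, and not in the same direction. IL6 and LIF rose, and IL11 fell. IL6 (Gene ID 3569, chr7:22727142-22732002, plus strand) encodes the founding cytokine of the family, which drives inflammation and glioma growth. IL6 was at 29.61 and 26.6 FPKM in the knockdown libraries and at 4.46 and 3.49 in the SCR libraries. The lowest knockdown library was far above the highest SCR library. The means were 28.11 ± 2.13 and 3.975 ± 0.686 (SD, n = 2 each), a ratio of 7.07. On the log2(FPKM + 1) scale, which understates the change of low genes, the difference was 2.55 (SE 0.12, 95% interval 2.21 to 2.9, adjusted p = 0.000591). IL6 was the gene with the 44th largest rise among all genes tested. The values stand on an estimated 612 and 548 reads with knockdown and 100 and 72 in SCR, the fewest of the 3 cytokines. The start of IL6 overlaps STEAP1B on the opposite strand, and whether strand was used in counting is not given in the sources used here. STEAP1B itself was at 17.5 and 18.7 FPKM with knockdown and 10.39 and 9.16 in SCR, and reads from the shared stretch cannot be told apart without strand.

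LIF (Gene ID 3976, chr22:30240447-30246851, minus strand) encodes leukaemia inhibitory factor, which signals through LIFR and gp130 and is known for keeping stem cells undifferentiated. LIF was at 63.35 and 66.43 FPKM with knockdown and at 10.35 and 10.34 in SCR. The groups were widely separated and the SCR libraries nearly equal. The ratio of the means was 6.27 and the log2 fold change 2.54 (SE 0.04, 95% interval 2.43 to 2.64, adjusted p = 0.000155), the next largest rise after that of IL6 among all genes tested. The 2 cytokines rose by nearly the same factor, so that LIF stayed more abundant than IL6 in every library, by 2.14 and 2.5 times with knockdown and 2.32 and 2.96 times in SCR. The ranges of this ratio overlapped between groups. The antisense genes LIF-AS1 and AC004264.1 overlap LIF.

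IL11 (Gene ID 3589, chr19:55364382-55370463, minus strand) encodes IL-11, a gp130 cytokine produced by stromal cells and linked to fibrosis. IL11 was at 16.67 and 16.98 FPKM with knockdown and at 63.02 and 64.23 in SCR. Both knockdown libraries lay far below both SCR libraries. The SCR mean was 3.78 times the knockdown mean, and the log2 fold change was −1.86 (SE 0.03, 95% interval −1.95 to −1.77, adjusted p = 0.000172). The opposite moves also showed in ratios within a library, which do not depend on scaling between libraries. IL6 was at 1.78 and 1.57 times IL11 with knockdown but at 0.0708 and 0.0543 times IL11 in SCR. LIF was at 3.8 and 3.91 times IL11 with knockdown and at 0.164 and 0.161 times IL11 in SCR.

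**Figure D2:**
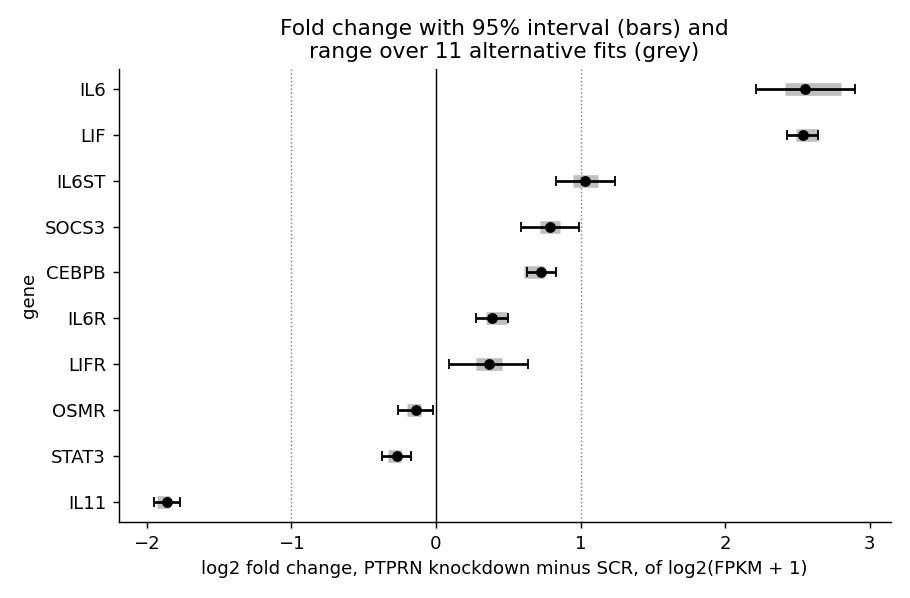
Log2 fold change of log2(FPKM + 1), PTPRN knockdown minus SCR, for the 10 genes, with black bars for the 95% interval, grey bars for the range over 11 alternative fits and dotted lines at a fold change of 2. IL6 (2.55) and LIF (2.54) stood on the right, IL11 (−1.86) on the left, and the other genes between −0.27 and 1.03.

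The receptor chains differed by less than the cytokines. IL6ST (Gene ID 3572, chr5:55935095-55994993, minus strand) encodes gp130 and rose with knockdown. IL6ST was at 47.54 and 50.08 FPKM with knockdown and at 21.98 and 24.7 in SCR. Both knockdown libraries were above both SCR libraries. The means were 48.81 ± 1.8 and 23.34 ± 1.92 (SD, n = 2 each), a ratio of 2.09, with a log2 fold change of 1.03 (SE 0.07, 95% interval 0.83 to 1.24). Its adjusted p of 0.00118 passed 0.05 and just missed 0.001, which it passed with an FPKM minimum of 1 in 2 libraries (2.44e-05) and with an eBayes trend (0.000618). With a pseudocount of 0.1 it was 0.00428, and with the replicate number as a block 0.00435. The change was below 2 times with median-ratio scaling (log2 fold change 0.99), quantile normalization (0.98) and without SCR replicate 1 (0.95).

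IL6R (Gene ID 3570, chr1:154405193-154469450, plus strand) encodes the chain that binds IL-6 before gp130 and sets which cells respond to it directly. IL6R was at 4.31 and 4.14 FPKM with knockdown and at 3.06 and 2.91 in SCR. The groups did not overlap, and the rise was small, with a log2 fold change of 0.39 (SE 0.04, 95% interval 0.28 to 0.5, adjusted p = 0.00273). IL6R was the lowest of the 10 genes in both groups. IL6ST was at 11.0 and 12.1 times IL6R with knockdown and at 7.18 and 8.49 times IL6R in SCR.

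LIFR (Gene ID 3977, chr5:38474963-38595405, minus strand), the signalling partner of gp130 for LIF, was at 4.71 and 5.44 FPKM with knockdown and at 3.42 and 4.01 in SCR. The groups did not overlap, but the libraries of each group were further apart, relative to the level, than those of IL6R, IL6ST and OSMR. The log2 fold change was 0.37 (SE 0.1, 95% interval 0.09 to 0.64, adjusted p = 0.039). This call was lost when any 1 of the 4 libraries was left out (log2 fold changes 0.28 to 0.46, adjusted p between 0.122 and 0.228) and with a pseudocount of 0.1 (adjusted p = 0.0625).

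OSMR (Gene ID 9180, chr5:38845858-38935641, plus strand), the gp130 partner for oncostatin M and a marker gene of mesenchymal glioma, did not pass the test. OSMR was at 41.96 and 40.95 FPKM with knockdown and at 44.6 and 47.01 in SCR. The groups lay close together without overlap. The log2 fold change was −0.14 (SE 0.04, 95% interval −0.26 to −0.02, adjusted p = 0.0514), and the adjusted p fell below 0.05 under 5 of the 11 alternative fits. OSMR was thus above IL6ST in both SCR libraries and below it in both knockdown libraries. IL6ST was at 1.13 and 1.22 times OSMR with knockdown and at 0.493 and 0.525 times OSMR in SCR.

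Behind the receptors, STAT3 fell slightly while SOCS3 and CEBPB rose. STAT3 (Gene ID 6774, chr17:42313325-42388495, minus strand) was at 23.32 and 23.61 FPKM with knockdown and at 29.1 and 27.9 in SCR. The knockdown libraries were below both SCR libraries, with a ratio of means of 0.823 and a log2 fold change of −0.27 (SE 0.04, 95% interval −0.37 to −0.17, adjusted p = 0.00604). The adjusted p was 0.0677 without the first and 0.0631 without the other knockdown library. These are mRNA levels, and STAT3 is switched on by phosphorylation, which was not measured in the libraries.

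SOCS3 (Gene ID 9021, chr17:78356777-78360079, minus strand), the feedback inhibitor that binds gp130, was at 23.31 and 25.13 FPKM with knockdown and at 14.33 and 12.91 in SCR. Both knockdown libraries were above both SCR libraries, with a ratio of means of 1.78 and a log2 fold change of 0.79 (SE 0.07, 95% interval 0.59 to 0.99, adjusted p = 0.00214). Without knockdown replicate 2 the adjusted p was 0.0518. SOCS3 was at 1.0 and 1.06 times STAT3 with knockdown and at 0.492 and 0.463 times STAT3 in SCR.

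CEBPB (Gene ID 1051, chr20:50190583-50192690, plus strand) was the most abundant of the 10 genes in both groups. CEBPB was at 132.66 and 131.22 FPKM with knockdown and at 80.62 and 77.81 in SCR. The replicates were close and the groups well apart, with means of 131.9 ± 1.02 and 79.22 ± 1.99 (SD, n = 2 each) and a ratio of 1.67. The log2 fold change was 0.73 (SE 0.03, 95% interval 0.63 to 0.83, adjusted p = 0.00058), below the minimum fold change of 2. CEBPB-AS1 overlaps the gene on the opposite strand. Among the receptor chains, opposite-strand genes or pseudogenes also overlap IL6R (IL6R-AS1, PSMD8P1), LIFR (LIFR-AS1) and IL6ST (AC008914.1, AC016596.1, AC008892.1).

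**Figure D3:**
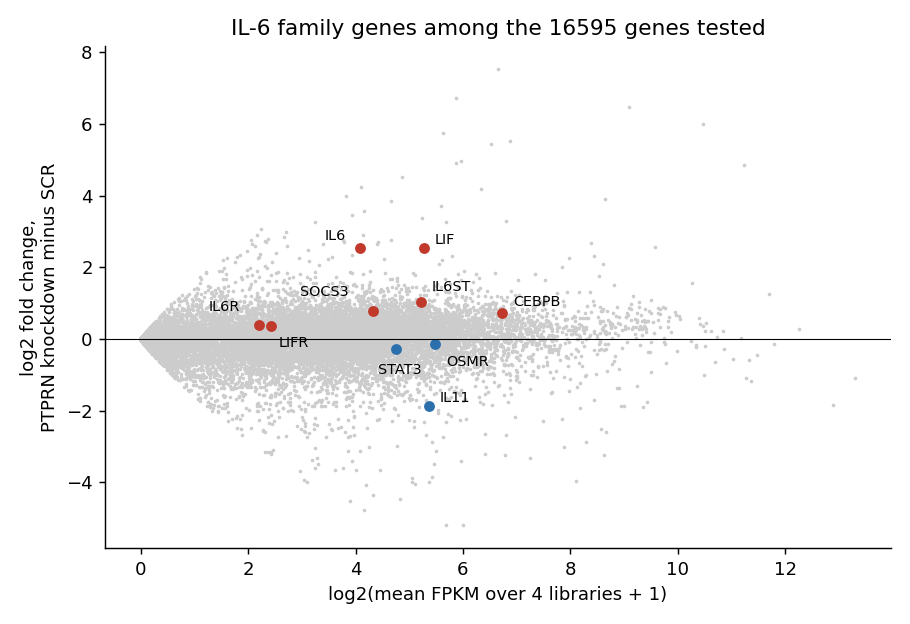
Log2 fold change, PTPRN knockdown minus SCR, against log2 of the mean FPKM over 4 libraries plus 1, for the 16595 genes tested (grey), with the 10 genes in red where the difference was above 0 and in blue where it was below 0. IL6 and LIF lay at the upper edge of the grey cloud, at 2.55 and 2.54, IL11 at the lower edge, at −1.86, and LIFR, IL6R, STAT3 and OSMR near the middle.

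FPKM is scaled by length, so levels of different genes were set side by side. With knockdown the order of mean FPKM was CEBPB, LIF, IL6ST, OSMR, IL6, SOCS3, STAT3, IL11, LIFR and IL6R, and of neighbours in this order SOCS3 and STAT3 alone overlapped. In SCR the order was CEBPB, IL11, OSMR, STAT3, IL6ST, SOCS3, LIF, IL6, LIFR and IL6R, and of neighbours IL6 and LIFR alone overlapped. LIF thus went from rank 7 in SCR to rank 2 with knockdown, IL6 from rank 8 to rank 5, and IL11 from rank 2 to rank 8.

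Of the 7 ligands IL6, IL11, LIF, OSM, CNTF, CTF1 and CLCF1, the summed FPKM was 152.3 and 154.2 with knockdown and 120.5 and 121.0 in SCR. IL11 made up 52.3% and 53.1% of the sum in SCR and 10.9% and 11.0% with knockdown. LIF made up 8.59% and 8.55% in SCR and 41.6% and 43.1% with knockdown, and IL6 3.7% and 2.88% against 19.4% and 17.2%. The sum thus differed far less between groups than its makeup. Of the 8 receptor chains, gp130 (IL6ST) held 22.0% and 22.7% of the summed FPKM in SCR and 40.5% and 42.0% with knockdown. OSMR held 44.5% and 43.3% in SCR and 35.7% and 34.3% with knockdown, while IL6R and LIFR each stayed under 5% in every library.

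**Figure D4:**
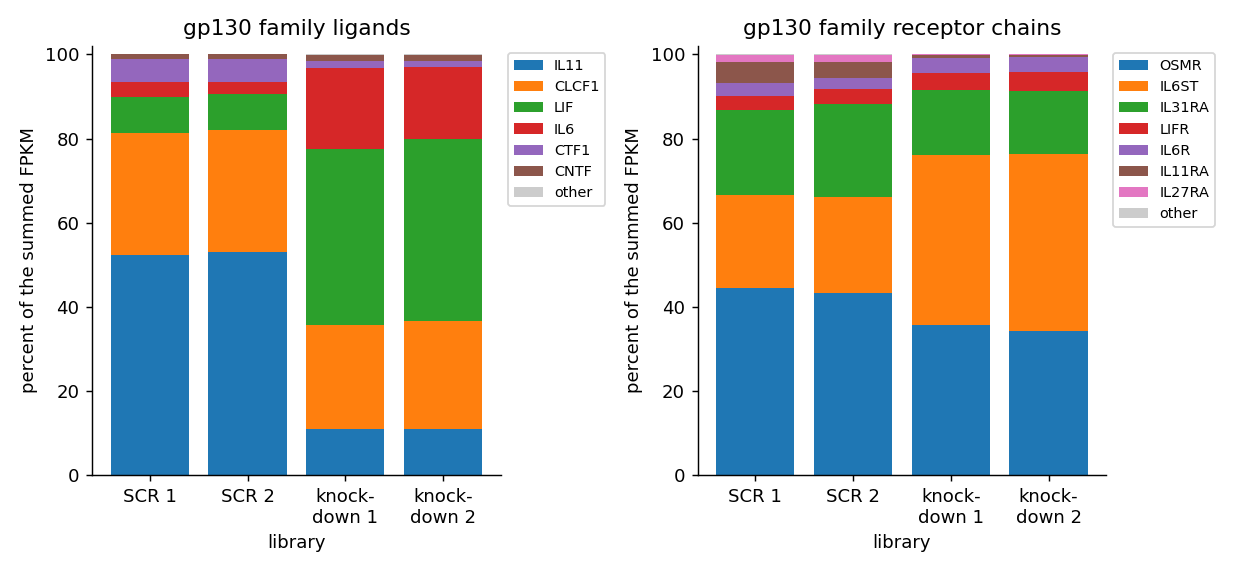
Percent of the summed FPKM of 7 gp130 family ligands (left) and 8 receptor chains (right) held by each gene, 1 bar per library. IL11 went from 52.3% and 53.1% of the ligand sum in SCR to 10.9% and 11.0% with knockdown, and IL6ST went from 22.0% and 22.7% of the receptor sum to 40.5% and 42.0%.

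Of the other ligands and soluble partner chains, 6 of 8 had a value. Of these, 2 rose, 2 fell and 2 did not pass the test, beside 30.8% of all genes higher and 27.1% lower. CLCF1, which activates the CNTF receptor, was the most abundant, at 37.88 and 39.57 FPKM with knockdown and 34.87 and 34.95 in SCR (log2 fold change 0.15, adjusted p = 0.033). Cardiotrophin 1 (CTF1), which signals through LIFR and gp130, fell from 6.65 and 6.63 FPKM in SCR to 2.45 and 2.18 (log2 fold change −1.21, SE 0.05, adjusted p = 0.000511) and was the only one of the 8 called at the stricter thresholds. CNTF was at 2.36 and 2.31 against 1.16 and 1.29 FPKM, a rise. EBI3, a partner chain of IL-27, fell from 1.16 and 0.61 to 0.1 in each knockdown library. OSM, the ligand of OSMR, did not exceed 0.15 FPKM, while IL27 and IL31 were listed without a value.

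The other receptor chains and the sheddases that release IL6R were tested for 6 of 6 genes, of which 0 rose, 4 fell and 2 did not pass the test, where 57.9% of all genes were called and 27.1% were lower. Their median log2 fold change was −0.42. IL11RA, the binding chain for IL-11, fell from 5.11 and 4.16 FPKM in SCR to 0.73 and 0.7 (log2 fold change −1.71, SE 0.09, adjusted p = 0.000762). IL11 and IL11RA were thus both lower with knockdown. IL27RA fell from 1.64 and 1.8 to 0.25 and 0.17 (log2 fold change −1.17, adjusted p = 0.00058). IL31RA, a partner of OSMR, was at 17.95 and 17.88 against 20.21 and 23.95 and did not pass (adjusted p = 0.0649), and CNTFR was near 0 in all libraries. The sheddases ADAM10 (26.8 and 27.44 against 39.43 and 41.74 FPKM, log2 fold change −0.56) and ADAM17 (13.99 and 14.26 against 16.81 and 17.23, log2 fold change −0.25) both fell.

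Of 10 JAK kinases and other STAT genes, 5 rose, 3 fell and 2 did not pass, beside 30.8% of all genes higher and 27.1% lower. The median log2 fold change was 0.13. JAK1, the main kinase of gp130, was at 54.09 and 56.12 FPKM with knockdown and 45.5 and 47.33 in SCR, a log2 fold change of 0.24 (adjusted p = 0.0106). JAK2 was at 4.3 and 4.7 against 4.2 and 4.08 and did not pass. TYK2 fell, at 15.61 and 15.69 against 19.92 and 18.34. STAT2 fell (log2 fold change −0.57), STAT5B fell (−0.35) and STAT6 rose (0.44).

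Of 16 negative regulators of the cascade, 15 had a value. Of these, 3 rose, 6 fell and 6 did not pass the test, beside 30.8% of all genes higher and 27.1% lower. SOCS5, a relative of SOCS3, fell from 14.77 and 14.84 FPKM in SCR to 5.39 and 5.33 (log2 fold change −1.31, SE 0.03, adjusted p = 0.000242). SOCS3 and SOCS5 therefore moved in opposite directions. PTPN1, a phosphatase that acts on JAK kinases, rose from 28.35 and 28.88 to 56.3 and 54.92 (log2 fold change 0.93, adjusted p = 0.000385). PIAS3, which binds STAT3 and blocks its contact with DNA, fell from 22.24 and 21.74 to 15.82 and 15.62 (log2 fold change −0.46, adjusted p = 0.00113). PTPN11, which also carries gp130 signals on to ERK, was at 50.41 and 52.34 against 52.44 and 55.87 and did not pass (adjusted p = 0.269).

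Genes widely described as STAT3 targets moved in both directions. Of 28, 14 rose, 10 fell and 4 did not pass the test, beside 30.8% of all genes higher and 27.1% lower. The median log2 fold change was 0.14, against 0.01 over all genes. Collagenase MMP1 rose from 0.79 and 0.69 FPKM in SCR to 33.36 and 30.25 (log2 fold change 4.24, SE 0.06, adjusted p = 0.000158), and the growth factor HGF from 0.49 and 0.58 to 9.2 and 11.07 (log2 fold change 2.85, SE 0.1, adjusted p = 0.000385). The protease inhibitor TIMP1, the most abundant of the 28, was at 1142.87 and 1091.63 against 633.16 and 589.05. In the other direction, gelatinase MMP2 fell from 1067.45 and 1067.53 to 319.81 and 313.82 (log2 fold change −1.75, adjusted p = 0.000172), and the hypoxia factor HIF1A from 391.68 and 406.02 to 156.11 and 156.83 (log2 fold change −1.34, adjusted p = 0.000276). Of 15 liver acute-phase genes known as IL-6 targets, 9 had a value. Of these, 2 rose, 1 fell and 6 did not pass, beside 30.8% of all genes higher and 27.1% lower. Complement C3 was the only one to reach an FPKM of 10 and fell slightly, from 173.53 and 173.28 to 160.62 and 161.68 (log2 fold change −0.11, adjusted p = 0.0409). SAA2 was at 0.79 and 0.88 against 0.49 and 0.37, and its reads may be shared with the near-identical SAA1.

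**Figure D5:**
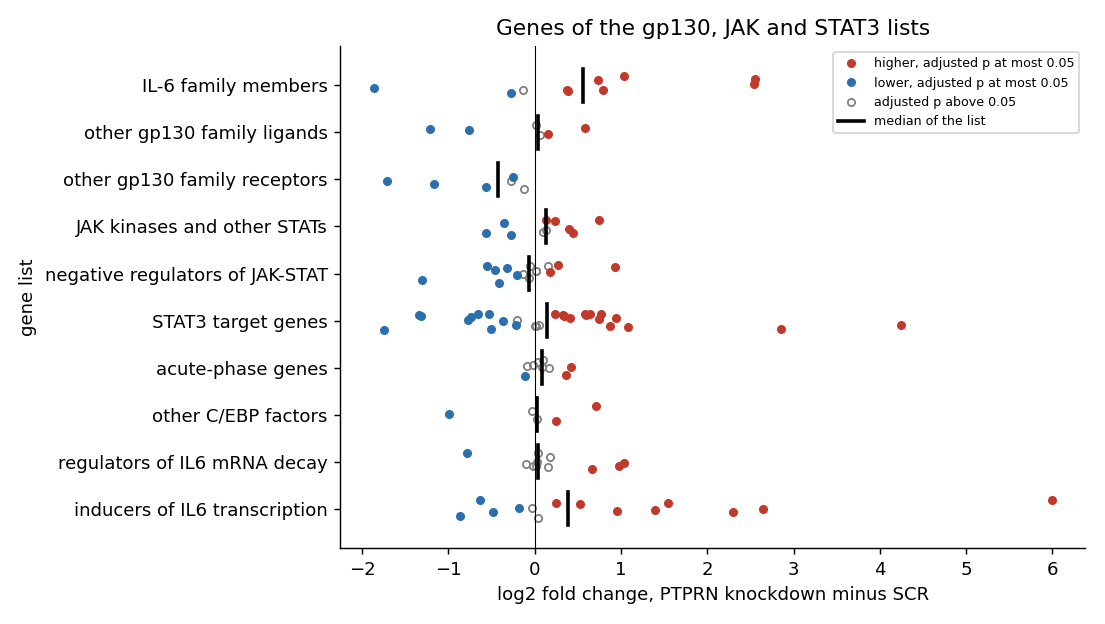
Log2 fold change, PTPRN knockdown minus SCR, of each tested gene in the 10 family genes and 9 other lists, with red and blue points for genes higher and lower at an adjusted p of at most 0.05, open points for the rest and a black line at each median. The medians ran from −0.42 (other receptors) to 0.56 (the 10 family genes), and the STAT3 targets spread from −1.75 (MMP2) to 4.24 (MMP1).

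CEBPB was set beside its relatives, which form dimers. Of 5 other C/EBP factors, 2 rose, 1 fell and 2 did not pass, beside 30.8% of all genes higher and 27.1% lower. CEBPD, which STAT3 is known to induce, fell from 48.08 and 43.84 FPKM in SCR to 22.83 and 22.36 (log2 fold change −0.99, SE 0.06, adjusted p = 0.000817), opposite to CEBPB. CEBPB was at 5.81 and 5.87 times CEBPD with knockdown and at 1.68 and 1.77 times CEBPD in SCR. The stress-induced inhibitor DDIT3 rose from 35.06 and 34.21 to 60.63 and 54.41 (log2 fold change 0.71, adjusted p = 0.00219), and CEBPA and CEBPE did not exceed 0.04.

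Genes that act on IL6 itself were examined at both ends of its mRNA's life. A list of 14 genes linked to IL6 transcription was chosen by name. Whether each gene raises or restrains IL6 was not tested, so the counts and median of the list do not measure induction. The median log2 fold change of the 14 genes was 0.39. Of these, 8 rose, 4 fell and 2 did not pass, beside 30.8% of all genes higher and 27.1% lower. Among them IL1A rose from 1.89 and 1.87 FPKM to 17.22 and 16.87 (log2 fold change 2.65), and IL1B had the largest log2 fold change of the list, 5.99. The AP-1 genes FOSL1 (566.46 and 583.54 against 116.61 and 114.53 FPKM, log2 fold change 2.3) and ATF3 (23.12 and 21.47 against 7.26 and 6.71, log2 fold change 1.54) rose too. The 4 that fell were the cytokine TNF (log2 fold change −0.87), the IL-1 receptor gene IL1R1 (−0.63) and the NF-κB subunits NFKB1 (−0.48) and REL (−0.18). TNF was low in every library, at 0.1 and 0.37 FPKM with knockdown and 1.32 and 1.16 in SCR. REL was also low, at 1.05 and 1.07 against 1.31 and 1.36. The other NF-κB subunits of the list, NFKB2 (1.39), RELB (0.95) and RELA (0.25), rose. Of 11 regulators of IL6 mRNA decay, 3 rose, 1 fell and 7 did not pass, beside 30.8% of all genes higher and 27.1% lower. ZC3H12A, the nuclease regnase-1 that degrades IL6 mRNA, rose from 27.71 and 25.82 to 53.57 and 54.14 (log2 fold change 0.98, SE 0.05, adjusted p = 0.00058). Its relative ZC3H12C (4.47 and 4.53 against 1.63 and 1.75) and ZFP36 (16.01 and 16.91 against 10.51 and 9.64), another factor that destabilises cytokine mRNAs, rose as well. ZC3H12A and ZFP36 were thus higher in the same libraries as their target IL6. HNRNPD, which binds the same kind of AU-rich element, fell from 102.47 and 104.19 to 58.64 and 60.63 (log2 fold change −0.78).

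The genes outside these lists with at least 10 FPKM in the higher group whose centred log2 values lay nearest those of IL6 over the 4 libraries were TRAF1, CSF3 and FABP5. TRAF1, an adaptor of TNF receptors, was at a distance of 0.161, with 14.01 and 13.53 FPKM against 1.77 and 1.52 (log2 fold change 2.48). CSF3, the granulocyte colony-stimulating factor, was at 0.21, with 1286.34 and 1319.59 against 224.48 and 216.74 (log2 fold change 2.56). The lipid-binding gene FABP5, at 0.215, had 34.44 and 36.67 against 5.66 and 4.17, a value made uncertain by near-identical copies in the genome. The distance is a description over 4 points that fall in 2 groups.

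In bulk RNA, fewer cells of a type and less RNA per cell cannot be told apart, so marker genes of other cell types were summed per library. The 12 endothelial markers summed to 4.2 and 4.85 FPKM with knockdown and 5.08 and 5.03 in SCR, and 3 rose and 2 fell. The 10 myeloid markers summed to 364.4 and 346.3 against 237.7 and 238.0, nearly all of it CD68 (357.45 and 339.95 against 230.34 and 230.64), a lysosomal protein that is not confined to macrophages. Among the defining myeloid markers, PTPRC did not exceed 0.86 FPKM, CD14 0.89 and ITGAM 0.06. CSF1R was at 1.96 and 2.17 against 3.17 and 3.11 and fell (adjusted p = 0.00337), LYZ lay between 1.67 and 2.93, and FCER1G rose, reaching 1.12. In all, 2 of the 10 rose and 2 fell. The 8 lymphocyte markers summed to 0.14 and 0.5 against 1.56 and 2.23. In SCR the sum was mostly CD2 (1.44 and 2.11, against 0.04 and 0.0 with knockdown), the only one of them to fall, and with knockdown mostly CD79A (0.1 and 0.36). The 10 epithelial markers summed to 6.85 and 6.64 against 12.5 and 11.51, with KRT8 and KRT18 lower, CLDN7 higher and EPCAM at most 0.33. Of 13 glial and U87 markers, 3 rose and 5 fell, among them nestin (NES, 3.12 and 3.39 against 12.96 and 14.24). Over all genes tested, 30.8% were higher and 27.1% lower. The part of these markers in the differences of the family genes was not tested.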

How the data were processed

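Single-end reads of 50 bases were obtained on a BGISEQ-500. The authors deposited 1 FPKM value per gene and library in 2 tables, and 0 of 66380 values compared differed. The submitters' processing notes name HISAT2 2.1.0 and hg19, yet 96.94% of the 19257 listed genes with a RefSeq entry overlapped their GRCh38.p14 position, so positions are given on GRCh38. The counting program and the use of strand are not given in the sources used here. Columns holding the authors' own comparisons (log2 fold changes, p-values, false discovery rates) were not used. Low FPKM values move in steps of 1 read, from which depth was estimated. Between 84.9% and 87.6% of low values fell within 0.2 of a whole read.

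For the 16595 genes with a value above 0 in at least 1 library, differences were tested with limma 3.58.1 (R 4.3.3, lmFit and eBayes with default options, 3.7176 degrees of freedom per gene) on log2(FPKM + 1), with group as the only term and Benjamini-Hochberg adjustment over all of them. The script was tested on simulated data. Tables and motifs were handled in Python 3.11.15. Overlapping genes are those of GENCODE.

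The members and gene lists were chosen with earlier results of these data known. Besides the members and PTPRN, the named genes of a list were at most the 4 largest changes at an adjusted p of at most 0.05 (with a mean FPKM no lower than 1 in the group that was higher) and the 2 most abundant. All genes of lists of 10 or fewer could be named, as could the 3 genes most like IL6. Some genes that these rules pick are counted in their lists but not reported here by name. CDH5, S100B, GFAP, SOX2, OLIG2, CDKN2A, CDKN2B, MTAP, SAA1 and STEAP1B fall outside these rules and were chosen after their values were seen. The same holds for TNF, IL1R1, NFKB1, REL, NFKB2, RELB and RELA. Alternatives were a pseudocount of 0.1, an FPKM minimum of 1 in 2 libraries, median-ratio scaling, quantile normalization, an eBayes trend, the replicate number as a block and leaving out each library.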

Additional observations from a re-analysis of the deposited data

How the results depend on the processing

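Over 11 alternative fits no gene among the 10 members and PTPRN changed direction, and IL6 (log2 fold change 2.41 to 2.8), IL11 (−1.93 to −1.84), LIF (2.49 to 2.64), IL6R, IL6ST, CEBPB and PTPRN passed an adjusted p of 0.05 in all of them. LIFR did not pass with a pseudocount of 0.1 (0.44, adjusted p = 0.0625) or with any library left out (0.28 to 0.46). OSMR passed with an FPKM minimum of 1 (−0.14), median-ratio scaling (−0.19), quantile normalization (−0.2), an eBayes trend (−0.14) and a trend with a pseudocount of 0.1 (−0.14, an alternative chosen after seeing the data). With 1 library left out, STAT3 ranged from −0.3 to −0.24 and SOCS3 from 0.72 to 0.86, and OSMR from −0.18 to −0.1. In those fits the lone library of a group was assumed to vary like the other group, and 6181 to 6332 genes passed 0.05, against 9603 with all libraries.

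At the study's thresholds the count of members was 3, and it was 0 with a pseudocount of 0.1, 0 with the replicate number as a block, and 0 to 0 with each library left out. Under these settings limma called 0 of all genes, against 1111, since the lowest adjusted p was 0.00122, 0.00396 and 0.0226 or more. At an unadjusted p under 0.05 there were 9, 9 and 8 to 9 members, and 10185, 10108 and 8700 to 8790 genes of all. The number is shared between groups with nothing to say that it marks a pairing. With 2 pairs the deviations of equal numbers correlated at 0.0674 across genes. The block left IL6 at 2.55, LIFR at 0.37 and the count at 0.05 over all genes at 9139.

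Of the 9 other pathway lists, acute-phase genes went from 3 called to 0 with an FPKM minimum of 1, where few of them remain. With 1 library left out the counts ranged from 2 to 3 for the other ligands (4 with all libraries, 2 without knockdown replicate 2), 4 to 5 for JAK kinases and other STATs (8), 3 to 5 for negative regulators (9), 0 to 4 for acute-phase genes (3, and 0 without either SCR library) and 1 to 3 for other C/EBP factors (3, and 1 without either SCR library). None of the 71 genes called in these 9 lists changed direction in these alternatives. The SCR level of IL6 rests on as few as 72 estimated reads, which limits its precision.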
